A study of Mus musculus with 2 samples.

Results

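A set of 43 genes that build ribosomes or keep the nucleolus was followed through single CD4+ CD25+ cells of lymph node and spleen. The members were found by gene symbol in the count matrices, and all 43 of the 43 listed symbols were among the 31056 measured features. The cells came from healthy female Mycfl/flFoxp3Cre/WT mice, where loxP sites flank Myc on both chromosomes and Cre sits in 1 of the X-linked Foxp3 alleles, so that cells with and without a functional Myc gene live side by side in the same animal. YFP+ and YFP- cells of the CD4+ CD25+ gate, which enriches regulatory T (Treg) cells, were sorted and sequenced together with the 10x 3' V2 chemistry. There was 1 lymph node library and 1 spleen library. All cells of both libraries therefore share the floxed genotype, and no library came from mice with Cre and unfloxed Myc. Cre is carried by the Foxp3 locus, so it is made in cells that use that Foxp3 allele. The labels do not state the age or number of the animals.

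The ribosome is assembled mostly in the nucleolus. RNA polymerase I copies the ribosomal DNA into a long precursor RNA, small nucleolar ribonucleoproteins (snoRNPs) modify it, and a large cast of assembly factors cleaves and folds it into the small and the large subunit. T cells expand this machinery when their antigen receptor is engaged, and the transcription factor Myc is a well known driver of many of its genes. The enzymes Odc1 and Srm, which make the polyamines putrescine and spermidine, and the DNA repair enzyme Apex1 are classical growth-linked targets of Myc and were listed with the set.

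In all, 13324306 unique molecular identifiers (UMIs) were counted in 5079 lymph node barcodes and 16868549 UMIs in 6840 spleen barcodes. After a filter on genes and mitochondrial share, 4820 and 6543 cells entered, with median depths of 2031 and 1935 UMIs. All 7 markers of CD4 T and Treg cells were detected in both libraries, at a summed level of 3170 and 3142 CPM, the UMIs of a gene scaled to a fixed library total, from 110 CPM for Foxp3 to 1192 CPM among lymph node cells and from 108 CPM for Foxp3 to 1180 CPM in spleen. B cell markers summed to 1097 and 883 CPM, and cycling markers to 300 and 204 CPM. Erythroid markers summed to 326 CPM among lymph node cells and 0.96 CPM in spleen, and their part in the tissue values was not tested. There were 53 barcode sequences found in both libraries. With 1 library per tissue there is no replicate and no test. The 95% intervals cover counting error alone, apart from those of list medians, which come from the spread over the genes of a list. Cells of 1 library are not replicates, and the values of the 2 libraries are set side by side as the only repeat the design has. A 3' UMI counts 1 tag per transcript, so levels of different genes are given as CPM with no length scaling.

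The set had a steep order of levels, with a pair of abundant nucleolar proteins at the top and polymerase subunits and early processing factors at the bottom. Summed over the 43 genes, it held 3648 CPM among lymph node cells and 3960 CPM in spleen, which is 0.365% and 0.396% of all UMIs, against 34.0% and 33.2% for the cytosolic ribosomal protein genes whose products it assembles. Members ranged from 3.98 to 1082 CPM in lymph node, with a median of 34.1, and from 5.53 to 1140 CPM in spleen, with a median of 40.9. A mean of at least 20 CPM, the minimum used for ratios over the list, was reached by 35 of 43 members in the tissue contrast. The members under it had few UMIs, so their ratios are not counted with the list.

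Among the nucleolar organisers, Npm1 (nucleophosmin, a histone and ribosome chaperone of the granular component) was the most abundant member, at 1082 CPM among lymph node cells and 1140 CPM in spleen. Ncl (nucleolin, which binds nascent precursor RNA) followed at 478 and 503 CPM. Together they made up 42.8% and 41.5% of the summed level, so a sum over the set is largely a sum over these genes. Ddx21, an RNA helicase of polymerase I and II transcription, stood at 84.2 and 92.2 CPM, and Nolc1, a snoRNP chaperone, at 48.8 and 57.6 CPM.

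The snoRNP proteins came next. In the box C/D particle, which guides 2'-O-methylation, the methyltransferase Fbl (fibrillarin) was at 159 and 179 CPM among lymph node cells and spleen, the core proteins Nop56 and Nop58 at 97.9 and 58.1 CPM among lymph node cells and at 119 and 71.1 CPM in spleen, and the U3-specific protein Rrp9 at 33.9 and 39.1 CPM. In the box H/ACA particle, which guides pseudouridylation, the small core protein Nop10 was the third most abundant member, at 347 and 367 CPM. Nhp2 stood at 105 and 115 CPM, Gar1 at 51.5 and 62.1 CPM and the pseudouridine synthase Dkc1 (dyskerin) at 50.3 and 54.4 CPM. The particle's 4 proteins are core components of 1 complex, yet their transcripts differed widely in level.

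Transcripts of the polymerase I subunits were near the bottom, with Polr1a at 12.4 and 12.0 CPM and Polr1b, the second largest subunit, at 4.98 and 6.67 CPM. The small subunit factors were also low. Wdr43 led them at 54.7 and 62.9 CPM, whereas Heatr1, Rrp12 and Utp20, large scaffold proteins of the early small subunit precursor or its export, stood at 8.27, 5.29 and 3.98 CPM among lymph node cells and at 9.07, 5.53 and 5.71 CPM in spleen. The large subunit factors spanned from 16.8 CPM for Nle1 to 121 CPM for Pa2g4 (the growth-regulated protein Ebp1) in lymph node, and from 20 to 131 CPM for the same genes in spleen. The PeBoW complex, which processes the large subunit RNA, had its 3 proteins Bop1, Pes1 and Wdr12 at 30.4, 28.6 and 22.8 CPM among lymph node cells and at 34.4, 32.9 and 24.8 CPM in spleen. These 3 transcripts stood closer together than those of the box H/ACA proteins. Odc1, Srm and Apex1 stood at 54.9, 37.6 and 34.1 CPM among lymph node cells and at 45.5, 43.2 and 43.4 CPM in spleen. Ncl, Nop56, Nop58, Gnl3, Wdr43, Dkc1, Ppan, Tsr1 and Pa2g4 overlap small RNA or other genes on the same strand, and Mrto4 has 2 listed pseudogenes. Some of their tags could thus have been assigned elsewhere.

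**Figure D1:**
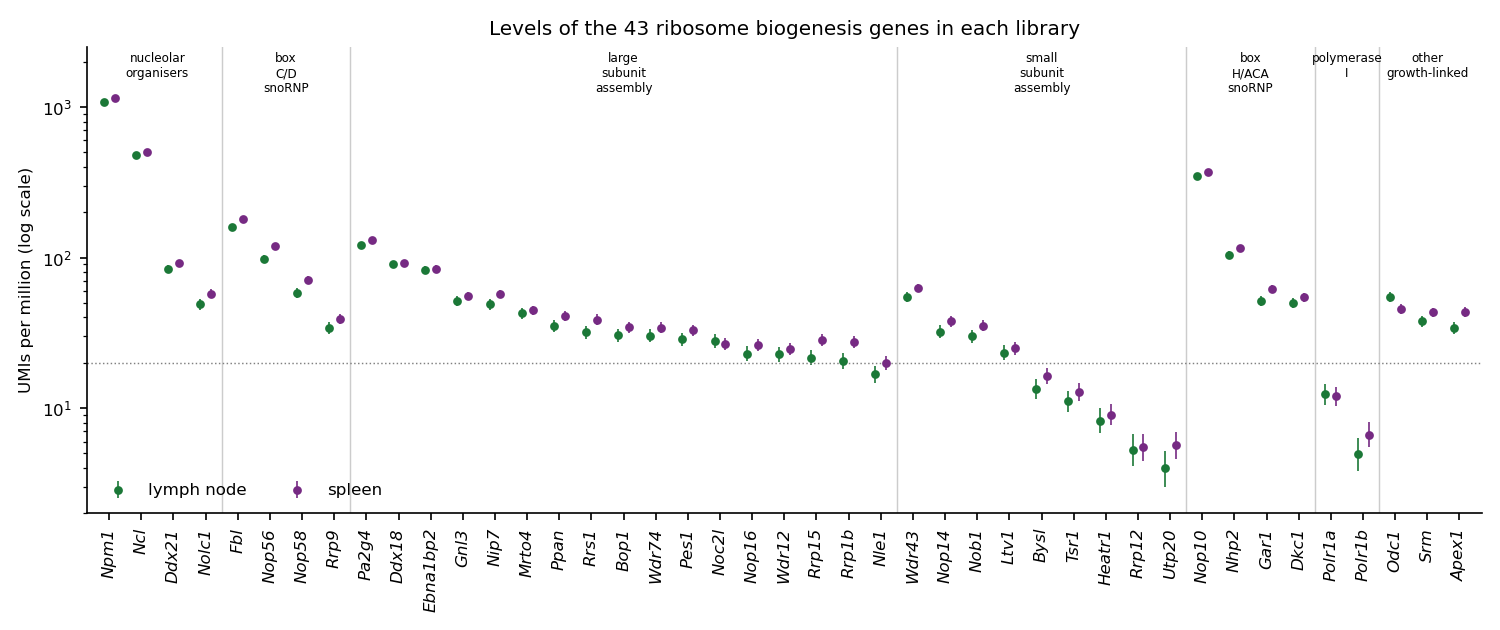
Level of each of the 43 genes in the lymph node and the spleen library, as CPM on a log axis, grouped by role, with exact Poisson 95% intervals of counting error. Npm1, Ncl and Nop10 stand apart at the top, and 33 of the 35 genes above the minimum lie lower in lymph node than in spleen.

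Myc binds the E-box CACGTG, a palindrome that reads the same on both strands, so promoters of the set were searched for it. The window ran from 250 bases before to 50 bases after each RefSeq gene start on GRCm38.p6, and 37 of the 43 members were in that table. The motif was in 7 of 37 member promoters (18.9%), against 2187 of 27025 promoters of the whole table (8.09%) and 525 of 4046 promoters of genes at 20 CPM or more in these cells (13.0%). In the 250 upstream bases alone it was in 1 of 37 members (2.70%), against 6.86% and 11.1%. So in the members the motif lay mostly at or just after the annotated start. The sequences shown are 30-base windows, 5′ to 3′ on the gene's strand, of the members with the motif that come first in the order of the Tnfrsf9 contrast below, with the motif in capitals. A match describes letters and is not evidence of binding.
Apex1, chr14:50924913-50924942, plus strand: gcgctccagaacCACGTGggggcggagccc
Apex1, chr14:50924937-50924966, plus strand: gagccctcgaatCACGTGaccacaccaatc
Apex1, chr14:50924958-50924987, plus strand: acaccaatcgccCACGTGggaacaggcaga
Ltv1, chr10:13193092-13193121, minus strand: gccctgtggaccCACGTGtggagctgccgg
Pes1, chr11:3963965-3963994, plus strand: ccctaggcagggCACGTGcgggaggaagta
Wdr43, chr17:71616220-71616249, plus strand: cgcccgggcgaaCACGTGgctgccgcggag
Apex1 holds 3 copies in the window, and the others shown hold 1 each. Utp20, Tsr1 and Nle1 are the other members with a match.

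Between the tissues, the set was slightly and evenly lower in lymph node. Of the 35 members at the minimum, 33 were lower in lymph node, where 55.3% of all genes at the minimum were lower. The median log2 ratio of lymph node to spleen was −0.18 over the members (interval −0.22 to −0.12), against −0.02 over all genes. No member passed a fold of 1.5, which 0.872% of all genes passed upward and 0.713% passed downward. The summed level was 0.921 times that of spleen (interval 0.910 to 0.932).

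The members with the lowest ratios were Rrp1b, a nucleolar large subunit factor, at 20.7 CPM among lymph node cells and 27.5 CPM in spleen (ratio 0.753, interval 0.646 to 0.877), followed by Rrp15 at 21.7 and 28.3 CPM and Apex1 at 34.1 and 43.4 CPM. Nop58, Rrs1 and Nop56 had ratios of 0.817, 0.822 and 0.825. Only Odc1 and Noc2l were higher in lymph node. Odc1 had 54.9 CPM among lymph node cells and 45.5 CPM in spleen (ratio 1.21, interval 1.09 to 1.34), and the interval of Noc2l includes equality (ratio 1.04, interval 0.905 to 1.20). Odc1 is the rate-limiting enzyme of polyamine synthesis, while Srm, the next enzyme of the same pathway, went the other way at 37.6 and 43.2 CPM. Of 74 further ribosome assembly genes at the minimum, 58 were lower in lymph node (median −0.11), and ribosomal protein genes had a median of 0.01. With cells holding markers of other types or of cycling left out, the median over members was −0.25.

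Tnfrsf9 (4-1BB, CD137) is a costimulatory receptor that T cells display after antigen receptor engagement, and cells with its transcript held more ribosome assembly transcripts in both tissues. A UMI of Tnfrsf9 was found in 896 of the kept lymph node cells and in 1134 of the kept spleen cells (18.6% and 17.3%). Among cells gated as B cells by their markers, which should lack it, 0 of 48 and 0 of 54 had one, which allows shares of up to 7.40% and 6.60%. Cells with Tnfrsf9 held 4853 CPM of the set in lymph node, against 3266 CPM in cells without it, and 5477 CPM in spleen, against 3506 CPM. Over members, the median log2 ratio was 0.64 for lymph node (interval 0.49 to 0.75) and 0.76 for spleen (interval 0.59 to 0.85), against 0.09 and 0.10 over all genes. A fold of 1.5 was passed upward by 20 of 35 members in lymph node and 26 of 36 in spleen, where 7.03% and 9.04% of all genes passed it.

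The growth-linked enzymes led. Odc1 had 107 CPM in lymph node cells with Tnfrsf9 and 38.4 CPM in those without (2.78-fold higher, interval 2.39 to 3.23), and 90.2 against 32.1 CPM in spleen (2.81-fold, interval 2.43 to 3.25). Srm had 72.4 against 26.6 CPM in lymph node (2.72-fold, interval 2.27 to 3.26) and 84.4 against 30.9 CPM in spleen (2.74-fold, interval 2.36 to 3.18). Apex1 had 62.2 against 25.2 CPM and 78.4 against 32.9 CPM. For each of these 3 genes the Poisson intervals of the groups lie far apart, and the fold was nearly the same in both tissues.

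Large subunit factors and snoRNP proteins followed at about the same distance. Mrto4, which prepares the ribosomal stalk site, had 68.5 CPM in lymph node cells with Tnfrsf9 against 34.4 CPM without, and 74.0 against 35.8 CPM in spleen. Pa2g4 had 193 against 98.5 CPM and 219 against 105 CPM, and the H/ACA protein Nhp2 had 165 against 85.4 CPM and 187 against 93.4 CPM. The C/D protein Nop58 was 1.68-fold and 1.92-fold higher, Fbl 1.49-fold and 1.39-fold, Nop56 1.34-fold and 1.51-fold and Dkc1 1.58-fold and 1.72-fold, the last of which was lost in thinned cells (log2 ratio −0.044). Proteins of a single particle therefore differed in the size of their ratio.

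The most abundant members had smaller ratios. Npm1 had 1363 CPM in lymph node cells with Tnfrsf9 against 993 CPM without (1.37-fold) and 1461 against 1044 CPM in spleen (1.40-fold). Ncl had 663 against 420 CPM (1.58-fold) and 755 against 427 CPM (1.77-fold). Nop10 was nearly level, at 379 against 336 CPM and 415 against 353 CPM, although it sits in the same particle as Nhp2. Nop14, a small subunit factor, was the only member at the minimum with a ratio under 1 in either tissue, at 31.2 against 32.6 CPM in lymph node, and its interval includes equality. The polymerase I subunit Polr1b, below the minimum, had 9.57 against 3.53 CPM in lymph node (2.71-fold, interval 1.61 to 4.54) and 8.34 against 6.17 CPM in spleen (1.35-fold, interval 0.867 to 2.06).

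By role, the summed ratio was 2.67 in lymph node and 2.64 in spleen for the growth-linked enzymes, 1.56 and 1.68 for large subunit assembly, 1.45 and 1.52 for the nucleolar organisers, 1.46 and 1.51 for the C/D proteins, 1.37 and 1.42 for the H/ACA proteins and 1.28 and 1.46 for small subunit assembly. Of the wider assembly list, 70 of 76 genes in lymph node and 72 of 78 in spleen were higher with Tnfrsf9. Of these, 13 and 16 passed the fold, where 7.03% and 9.04% of all genes did. The medians of the list were 0.30 and 0.33, against 0.09 and 0.10 over all genes. The list's leading gene was Nol10, at 33.2 against 13.8 CPM and 33.6 against 12.2 CPM. Ribosomal protein genes went the other way, with 65 of 79 lower in lymph node and 70 of 79 lower in spleen and medians of −0.11 and −0.14. The genes that assemble ribosomes and the genes of the ribosome itself were thus not raised together in these cells.

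Depth moved with this gate, and the cause of the depth gap was not tested. Lymph node cells with Tnfrsf9 had a median of 2459.5 UMIs against 1964 without, and spleen cells 2434 against 1869. With the cells lacking Tnfrsf9 weighted to the depths of those that have it, the set was at 4853 against 3599 CPM among lymph node cells and at 5477 against 4163 CPM in spleen, ratios of 1.35 and 1.32. All 35 lymph node and all 37 spleen members at the minimum were then higher, where 66.6% and 68.1% of all genes were, and 16 of 35 and 12 of 37 passed the fold, where 3.98% and 4.42% of all genes did. Without the deepest 6% of cells the medians were 0.22 and 0.39, and 3 and 8 members passed the fold. Thinned to 1200 UMIs, the medians were 0.18 and 0.41, against 0.13 over all genes in each tissue, and 5 and 9 members passed it. So much of the size of the difference sat in few deep cells. The shares of all genes past the fold without the deepest cells and in thinned cells are not given. The counts of members in those settings therefore have no background beside them. Cycling markers, all 9 of which were detected, summed to 472 against 245 CPM among lymph node cells and 360 against 157 CPM in spleen, and the 7 B cell markers to 715 against 1217 CPM and 598 against 968 CPM. With cells holding markers of other types or of cycling left out, the medians were 0.46 and 0.81.

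**Figure D2:**
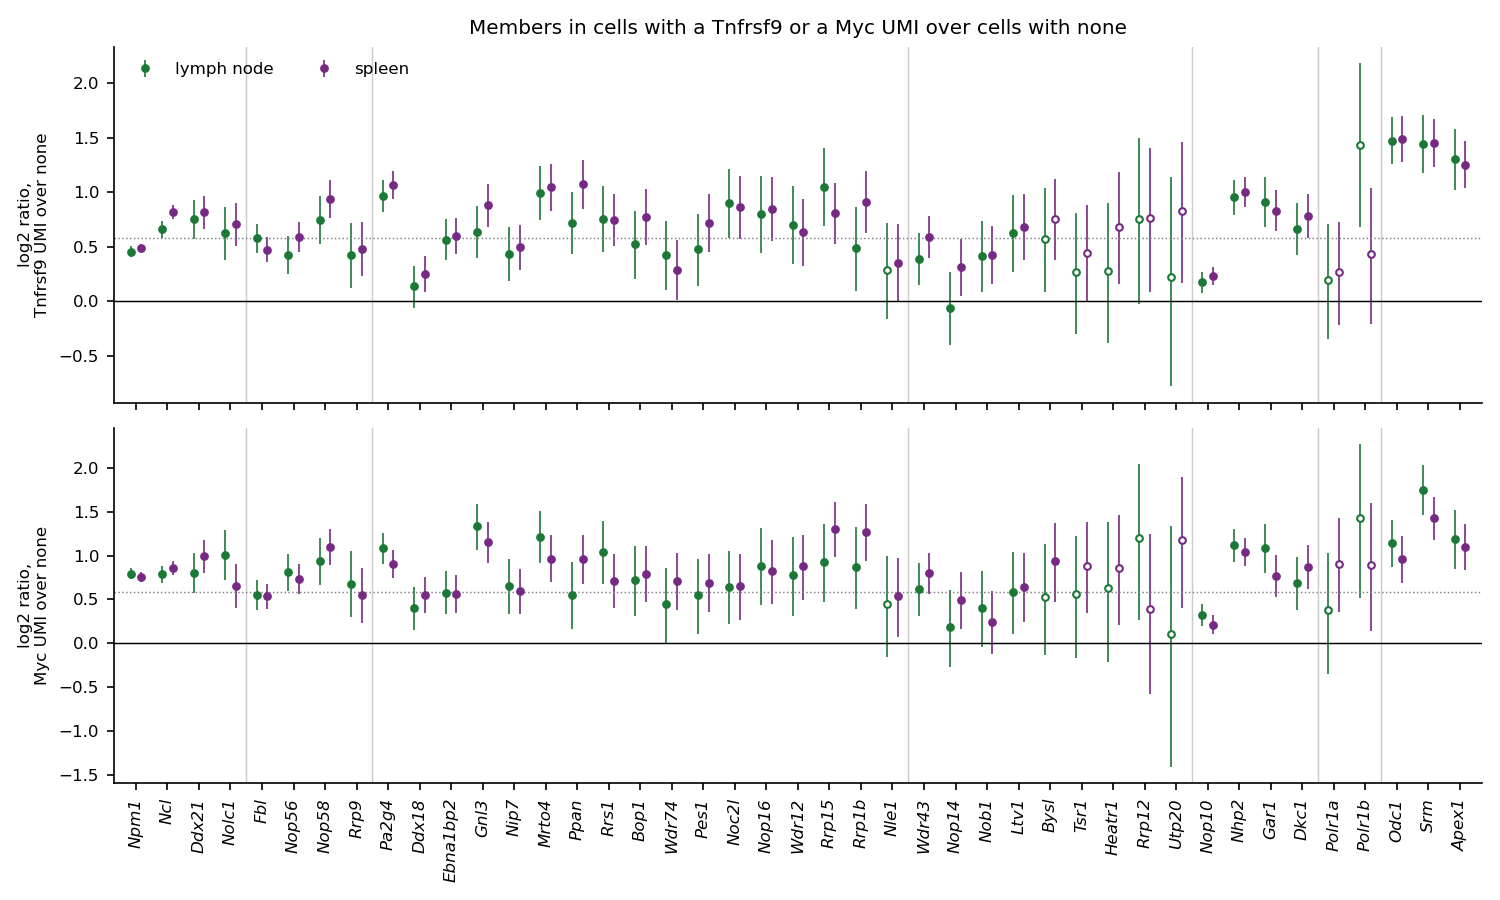
Log2 ratio of each of the 43 genes in cells with a UMI over cells without, for Tnfrsf9 and for Myc, in lymph node and spleen, with exact 95% intervals of counting error. Open points are genes below the minimum of 20 CPM, and the dotted line is a fold of 1.5. Srm, Odc1 and Apex1 lie at the high end for Tnfrsf9 in both tissues, and Nop10 and Nop14 at the low end.

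The level of the set went up with the number of Tnfrsf9 UMIs in a cell, up to a point. In lymph node it was 3266 CPM at 0 UMIs, 3635 at 1, 4682 at 2, 7602 at 3 and 7038 at 4 or more. In spleen the same steps held 3506, 4403, 6614, 6409 and 6825 CPM. From 3 UMIs on in lymph node and from 2 on in spleen the level went no further up in a steady way. At 4 or more UMIs, 35 of 37 and 33 of 37 members passed the fold over cells with none, where 23.7% and 21.3% of all genes did. In cells with none, 31 and 35 members reached the minimum, so some entered through the other group. With every cell thinned to 1200 UMIs, so that depth no longer sets the call, the steps 0, 1, 2 and at least 3 were at 3060, 3335, 3457 and 4514 CPM among lymph node cells and at 3286, 3935, 4773 and 4002 CPM in spleen.

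Myc, whose product drives these genes in many cell types, is also the floxed gene. A Myc UMI was found in 294 lymph node and 460 spleen cells (6.10% and 7.03%), while the B cell gate had it in 6 of its 48 lymph node cells (12.5%) and 1.85% of its spleen cells, so a Myc UMI is not a mark of T cells alone. The labels do not say which exons are floxed, and a 3' tag may lie outside the deleted part. Cells with Myc held 5785 CPM of the set in lymph node against 3389 CPM without, and 6218 against 3678 CPM in spleen. Members had a median log2 ratio of 0.79 in both tissues (intervals 0.65 to 0.93 and 0.69 to 0.91), against −0.06 and −0.05 over all genes. A fold of 1.5 was passed by 26 of 35 lymph node and 29 of 37 spleen members, where 6.33% and 3.77% of all genes passed it. By number of Myc UMIs, the set stood at 3389 CPM at 0, 4680 CPM at 1 and 7992 CPM at 2 or more in lymph node, and at 3678, 5250 and 8424 CPM in spleen. Thinned to 1200 UMIs, these steps were at 3075, 4228 and 3788 CPM among lymph node cells and at 3338, 4176 and 7125 CPM in spleen, with 11 and 20 cells in the last step. The lymph node step from 1 to 2 UMIs was thus not seen in thinned cells.

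Srm, the spermidine synthase, had the highest ratio of the members at the minimum in both tissues, at 101 against 30 CPM in lymph node (3.36-fold, interval 2.74 to 4.10) and 97.7 against 36.4 CPM in spleen (2.69-fold, interval 2.26 to 3.18). Gnl3 (nucleostemin, a nucleolar GTPase) was second in lymph node, at 112 against 44.5 CPM (2.52-fold), and was at 2.22-fold in spleen. Apex1 had 68.1 against 30 CPM and 82.6 against 38.5 CPM, but its spleen log2 ratio was −0.046 in thinned cells. Its promoter holds the 3 E-boxes printed above, but Ltv1, Pes1 and Wdr43, with 1 each, had ratios of 1.5, 1.46 and 1.54 in lymph node and 1.56, 1.61 and 1.74 in spleen, below the median of the set in both tissues except for Wdr43 in spleen, which lay just above it.

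Npm1 and Ncl had larger ratios here than with Tnfrsf9, though the gates share cells. Npm1 had 1737 against 1003 CPM in lymph node (1.73-fold, interval 1.66 to 1.81) and 1787 against 1059 CPM in spleen (1.69-fold, interval 1.62 to 1.75). Ncl had 765 against 443 CPM and 838 against 461 CPM. Odc1, first with Tnfrsf9, had 107 against 48.5 CPM (2.21-fold) and 79.9 against 41.2 CPM (1.94-fold), and Polr1b, with few UMIs, 11.3 against 4.21 CPM and 11.3 against 6.09 CPM. Fbl was 1.47-fold and 1.45-fold higher, Nop56 1.76-fold and 1.67-fold and Dkc1 1.61-fold and 1.83-fold. The difference between the gates was not tested.

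In the wider list, 63 of 76 lymph node and 71 of 79 spleen genes were higher with Myc. Past the fold were 7 and 11 of them, where 6.33% and 3.77% of all genes were. The medians of the list were 0.24 and 0.31, against −0.06 and −0.05 over all genes. Lyar, a nucleolar growth regulator, led the list at 111 against 49.6 CPM and 107 against 61.1 CPM. Here ribosomal protein genes were higher too, with a median of 0.14 in each tissue. The depth gap was wide, at a median of 3277 UMIs in lymph node cells with Myc against 1970 without and 3194 against 1879 in spleen. With depth matched, the set was at ratios of 1.32 and 1.40, all 35 and all 37 members at the minimum were higher, where 43.3% and 46.4% of all genes were, and 7 of 35 and 13 of 37 passed the fold, where 1.47% and 1.67% of all genes did. Without the deepest 6% of cells the medians were 0.38 and 0.29. Cycling markers summed to 624 against 261 CPM in lymph node and to 198 against 204 CPM in spleen. The part of cycling cells in the difference was not tested.

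Crossing both gates set apart a small group of cells with the highest level. Cells with both Tnfrsf9 and Myc UMIs held 9219 CPM of the set in lymph node (72 cells) and 9240 CPM in spleen (116 cells), that is 0.922% and 0.924% of their UMIs. Cells with Tnfrsf9 alone held 4095 CPM (824 cells) and 4740 CPM (1018 cells), cells with Myc alone 4098 CPM (222 cells) and 4663 CPM (344 cells), and cells with neither 3179 CPM (3702 cells) and 3384 CPM (5065 cells). So the groups with 1 of the genes lay near each other and nearer to the cells with neither than to the cells with both. Against cells with neither, 36 of 36 and 39 of 39 members passed the fold, where 23.3% and 20.3% of all genes did. The minimum is a mean over both groups, and 31 and 35 members reached it in the cells with neither. So some of the members counted entered through their level in cells with both.

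In the cells with both, Srm stood at 205 CPM against 24.2 CPM in lymph node cells with neither (8.46-fold, interval 6.58 to 10.8) and at 172 against 27.8 CPM in spleen (6.17-fold, interval 4.92 to 7.70). Odc1 stood at 213 against 36.7 CPM (5.81-fold) and 132 against 29.9 CPM. Mrto4, Apex1, Rrp15, Nhp2 and Pa2g4 were all 3.71-fold or more higher in both tissues. Ncl was 3.17-fold and 3.34-fold higher, and Npm1 2.56-fold and 2.33-fold. Nop10 was again at the low end, at 547 against 334 CPM and 564 against 354 CPM.

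The cells with both genes were the deepest, at a median of 4450 UMIs in lymph node and 4504 in spleen, against 1913 and 1823 in cells with neither. With depth matched, the ratio of the sum was 2.06 and 2.02, against 1.20 and 1.23 for Tnfrsf9 alone and 1.09 and 1.24 for Myc alone. The fold was passed by 35 of 36 and 39 of 39 members, where 16.4% and 15.8% of all genes did. The minimum was again a mean over both groups. The high level was not even among these cells. The median cell with both held 4540 CPM among lymph node cells and 4543 CPM in spleen, against 2727 and 2899 CPM in cells with neither, while the 90th percentile of cells with both was 15483 and 17930 CPM. The single cell richest in the set gave 15.2% of the set's UMIs in that lymph node group and 6.62% in that spleen group. Thinned to 1200 UMIs, only 21 lymph node and 29 spleen cells kept both genes, at 7063 and 6207 CPM, against 3043 and 3256 CPM in cells with neither.

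**Figure D3:**
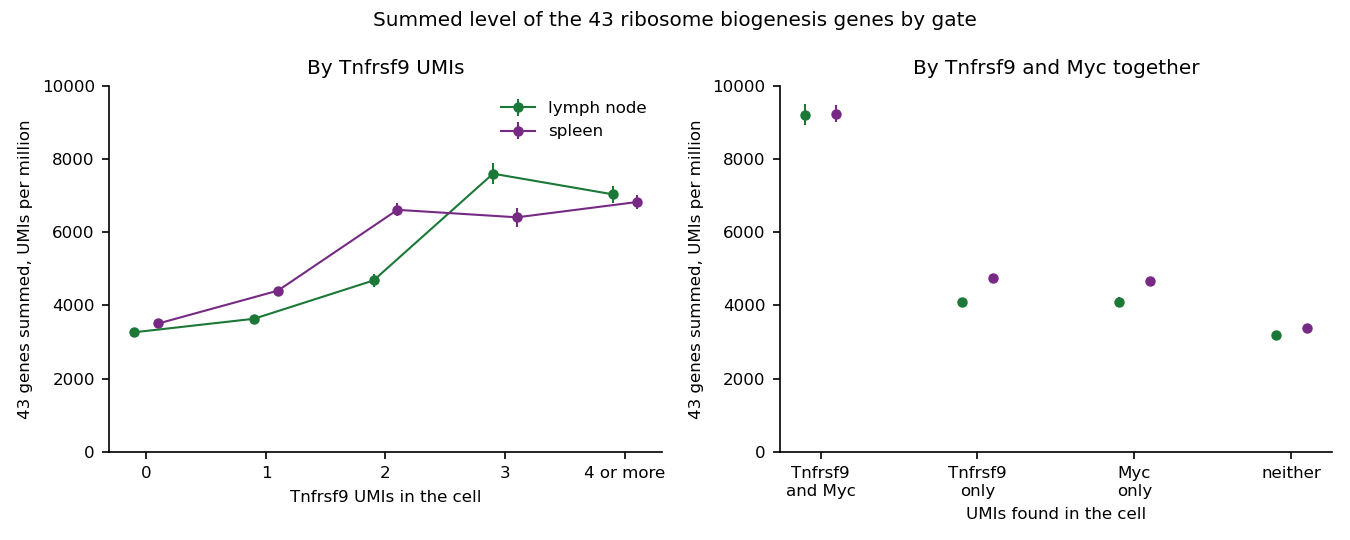
Summed level of the 43 genes by number of Tnfrsf9 UMIs per cell, and in cells with both, 1 or neither of the 2 genes, in each tissue, as CPM with exact Poisson 95% intervals. The cells with both stand at 9219 CPM among lymph node cells and 9240 CPM in spleen, above each group with 1 gene.

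Seen per cell at 1200 UMIs, most cells held a few transcripts of the set and a small tail held many. The mean was 3.73 UMIs of the set per cell in lymph node and 4.05 in spleen, with a variance 1.94 and 2.19 times the mean, which counting alone would put near equality. No UMI of the set was seen in 4.2% and 3.59% of cells, while 125 lymph node cells (2.74%) and 243 spleen cells (4.04%) held 10 or more, up to 31 and 33. Cells with 10 or more made up 4.74% of lymph node cells with Tnfrsf9 against 2.46% without, and 8.98% against 3.42% in spleen. Of the cells with 10 or more, 20.8% in lymph node and 24.7% in spleen had a Tnfrsf9 UMI, against 11.7% and 10.5% of the other cells. Myc was in 8.80% and 6.17% of them against 2.77% and 3.27%, and Ly6c1, a surface protein of resting T cells, in 8% and 7.82% against 13.8% and 14.9%. Most cells of the tail thus carried none of these gate transcripts at this depth.

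Depth itself tracked the set. Over 10 equal bins of cells ordered by UMIs, the summed level went from 2588 CPM in the shallowest to 5086 CPM in the deepest bin of lymph node cells, and from 2807 to 5749 CPM in spleen, with median depths of 1195 and 6163 UMIs in lymph node and 1136 and 5684.5 UMIs in spleen. In the deepest bin, cells with Tnfrsf9 held 6606 CPM in lymph node against 4096 CPM without, and 7231 against 4674 CPM in spleen. Within that bin the Tnfrsf9 cells were still deeper, at medians of 6869 against 5951 UMIs and 6327 against 5345 UMIs. In the next bin they held 3693 against 3192 CPM and 4283 against 3604 CPM. In the second shallowest bin the values were 2690 against 2712 CPM and 3147 against 2743 CPM. The gap was thus wider in the deepest bin than in these others. Doublets were not called, and the part of droplets with more than 1 cell in the deepest bin was not tested.

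**Figure D4:**
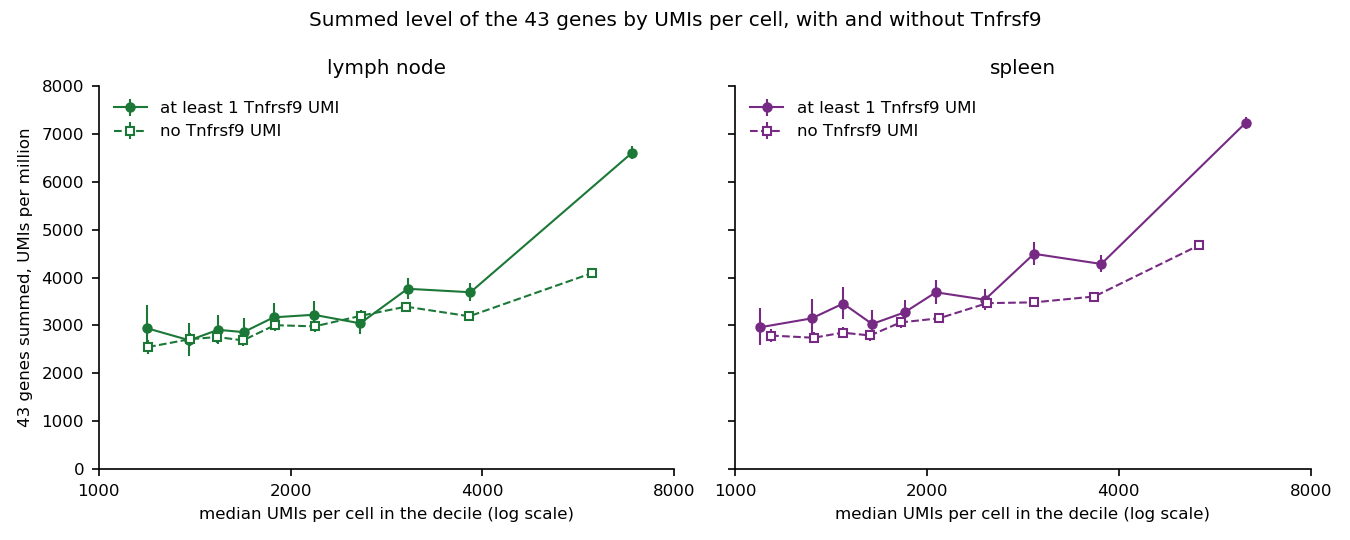
Summed level of the 43 genes in 10 equal bins of cells ordered by UMIs per cell, for cells with and without a Tnfrsf9 UMI, in each tissue, as CPM with exact Poisson 95% intervals. The lines part most in the deepest bin, at 6606 against 4096 CPM among lymph node cells and 7231 against 4674 CPM in spleen. In spleen they are also apart in earlier bins, as at 4496 against 3482 CPM in bin 8.

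Klrg1 marks terminally differentiated effector T and Treg cells. It was seen in 223 lymph node and 229 spleen cells (4.63% and 3.50%), against 1 of 48 and 0 of 54 cells of the B cell gate. Cells with Klrg1 held 3099 CPM of the set in lymph node against 3688 CPM without, and 3577 against 3986 CPM in spleen, although they were far deeper, at a median of 3209 against 1991 UMIs and 3384 against 1907 UMIs. The median log2 ratio over members was −0.24 for lymph node (interval −0.43 to −0.06) and −0.13 for spleen (interval −0.28 to 0.12), against 0.11 and 0.14 over all genes. A fold of 1.5 was passed downward by 7 of 33 and 3 of 35 members, where 5.07% and 7.0% of all genes passed it, so the spleen count is near the background. Thinned to 1200 UMIs, the medians were −0.22 for lymph node and 0.13 for spleen, the other sign, with 113 and 102 Klrg1 cells left. The medians over all genes were then 0.19 and 0.21.

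Matched on depth, the same cells stood lower. The set was then at 3099 against 4456 CPM among lymph node cells and 3577 against 5588 CPM in spleen, ratios of 0.695 and 0.640. Of the members at the minimum, 33 of 35 and 35 of 37 were lower, where 35.6% and 35.4% of all genes were, and 14 of 35 and 20 of 37 were lower past the fold, where 4.23% and 5.24% of all genes were. Of the members lower in both tissues without matching, Srm came first, at 19.9 against 38.9 CPM among lymph node cells and 29.4 against 44.1 CPM in spleen, but its spleen log2 ratio was 0.41, the other sign, in thinned cells. Nop10 had 210 against 357 CPM and 258 against 374 CPM, and Gnl3, Nob1, Nop56 and Rrp9 were also lower in both tissues. Without matching, Ddx21 was the exception, at 123 against 81.3 CPM in lymph node (1.51-fold higher, interval 1.23 to 1.84) and 107 against 91.2 CPM in spleen, where the interval includes equality. Bop1, Nhp2, Pes1 and Odc1 also had unmatched ratios above 1 in both tissues, with intervals that include equality. Only 2 members at the minimum were above 1 in each tissue at matched depth. Ribosomal protein genes had medians of −0.30 and −0.41. Cycling markers were higher, at 893 against 256 CPM and 1046 against 149 CPM, so a low level of the set was seen beside a high level of cell cycle transcripts. With cells holding markers of other types or of cycling left out, the medians were −0.14 and −0.28.

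ICRE is 1 of 3 features added to the gene table, beside EYFP and CRE. The labels do not give its sequence, so its reading as a transcript of the Cre allele is an assumption. No UMI of CRE was found, and EYFP had 2 UMIs, both of spleen cells. Cells with an ICRE but no Foxp3 UMI (354 in lymph node, 505 in spleen) were set against cells with a Foxp3 but no ICRE UMI (982 and 1195). This leaves out the few cells with both and the many with neither. Myc, the floxed gene, stood at 4.64 CPM (3 UMIs) in ICRE cells against 40.0 CPM (140 UMIs) in Foxp3 cells of lymph node, and at 17.0 CPM (16 UMIs) against 49.5 CPM (218 UMIs) in spleen. At 1200 UMIs per cell, Myc was in 0 of 255 lymph node ICRE cells, which allows a share of up to 1.44%, against 25 of 505 Foxp3 cells (4.95%), and in 3 of 342 against 41 of 591 (6.94%) in spleen.

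The set was lower in ICRE cells without depth matching. Ordered by the smaller absolute ratio of the tissues, Srm, Pa2g4, Odc1, Nhp2, Npm1 and Apex1 came first among the lower members. In spleen alone several others were lower than Npm1 and Apex1. Gnl3 was the lowest spleen member at the minimum, at 22.3 against 63.2 CPM. In lymph node Gnl3 had 37.1 against 46.5 CPM, with a ratio interval that includes equality. The Tnfrsf9 and Myc gates share cells with this contrast. The summed level was 2743 CPM in ICRE cells against 3576 CPM in Foxp3 cells of lymph node, and 3134 against 4242 CPM in spleen. The median log2 ratio was −0.30 for lymph node (interval −0.47 to −0.00) and −0.48 for spleen (interval −0.69 to −0.22), against 0.11 over all genes in each. A fold of 1.5 was passed downward by 8 of 32 and 15 of 35 members, where 7.46% and 7.54% of all genes passed it.

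Npm1 stood at 632 CPM in ICRE cells against 1140 CPM in Foxp3 cells of lymph node (1.80-fold lower) and at 789 against 1272 CPM in spleen (1.61-fold lower). Pa2g4 had 49.4 against 130 CPM (2.62-fold lower) and 81.7 against 162 CPM (1.99-fold lower). Srm had 18.5 against 41.4 CPM and 20.2 against 46.8 CPM, and Odc1 had 30.9 against 65.4 CPM and 30.8 against 58.6 CPM. For these 4 genes the ratio's interval lay below equality in both tissues. Nhp2 had 61.8 against 107 CPM and 74.3 against 136 CPM, and Apex1 13.9 against 30.5 CPM and 27.6 against 44.3 CPM, with a spleen log2 ratio of 0.022 at matched depth. Ncl was lower by less, at 372 against 474 CPM and 422 against 540 CPM.

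Other members did not follow. Nop10 was higher in ICRE cells, at 425 against 284 CPM in lymph node (1.5-fold, interval 1.3 to 1.71) and 371 against 323 CPM in spleen (1.15-fold, interval 1.02 to 1.29). Nop14 and Rrp9, both of the small subunit processome, had ratios of 1.22 and 1.18 in lymph node and 1.40 and 1.59 in spleen, and only that of Rrp9 in spleen had an interval above equality. Ddx18 was level, at 83.4 CPM on both sides of the lymph node contrast and at 89.2 against 89.3 CPM of the spleen one. Fbl had ratios of 0.879 and 0.718, Nop56 of 1.05 and 0.860 and Dkc1 of 1.13 and 0.565, so these snoRNP proteins differed more in spleen. Polr1b had only 3.09 against 4.28 CPM and 3.18 against 7.72 CPM. The wider assembly list had medians of 0.18 and 0.03, against 0.11 over all genes in each tissue. In that list 51 of 72 and 40 of 73 genes were higher in ICRE cells, and the share over all genes is not given. Ribosomal protein genes had a median of −0.22 in each tissue. These list values are without depth matching, and the difference between the lists was not tested.

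The depth gap was wide and moved the result. ICRE cells had a median of 1605.5 UMIs against 2859.5 in Foxp3 cells of lymph node, and 1635 against 2941 in spleen. With Foxp3 cells weighted to the depths of ICRE cells, the ratio of the sum was 0.906 and 0.905, and the medians over members were 0.00 in lymph node and −0.19 in spleen. Thinning gave 0.0061 and −0.28. With the weighted Foxp3 cells, 14 of 30 and 20 of 33 members were lower, where 48.3% and 44.6% of all genes were. Of these members, 1 of 30 and 7 of 33 were lower past the fold, where 9.57% and 6.73% of all genes were. So at matched depth the lymph node members as a list showed no lower level, and the spleen members a small one. Npm1 kept log2 ratios of −0.40 and −0.26 and Pa2g4 of −0.90 and −0.59, while Srm had −0.11 and −0.83. Cycling markers summed to 47.9 CPM in ICRE cells against 533 CPM in Foxp3 cells of lymph node, and to 15.9 against 466 CPM in spleen. With cells holding markers of other types or of cycling left out, the unmatched medians were −0.11 and −0.40.

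**Figure D5:**
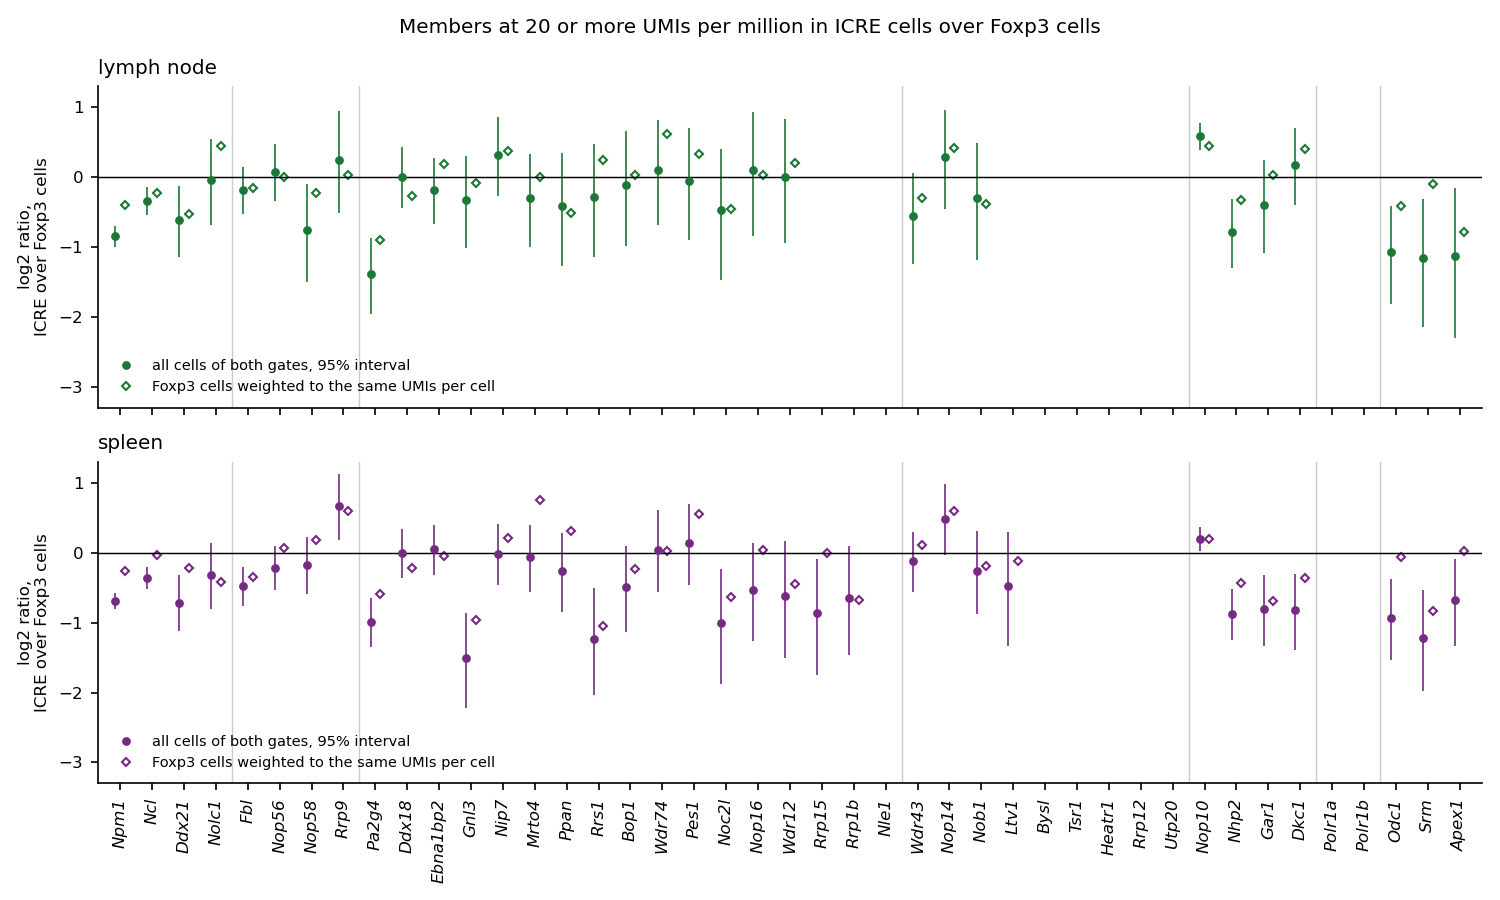
Log2 ratio of each gene at the minimum in cells with ICRE and no Foxp3 UMI over cells with Foxp3 and no ICRE UMI, with exact 95% intervals of counting error, and the same ratio with Foxp3 cells weighted to the depths of ICRE cells. Pa2g4 and Npm1 stay below 0 in both tissues at matched depth, and many other genes move to or above 0.

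Tnfrsf9 was as frequent in ICRE as in Foxp3 cells at 1200 UMIs, at 12.2% against 12.5% of lymph node cells and 11.1% against 11.8% of spleen cells. ICRE cells with Tnfrsf9 held 2818 CPM against 4444 CPM in Foxp3 cells with Tnfrsf9 (61 and 234 cells), and those without Tnfrsf9 held 2726 against 3201 CPM. At equal depth these gaps were smaller. Thinned to 1200 UMIs, lymph node ICRE cells held 3091 CPM with Tnfrsf9 and 2753 CPM without (ratio 1.12, interval 0.914 to 1.37), and Foxp3 cells 3254 and 2966 CPM (ratio 1.10, interval 0.955 to 1.26). ICRE over Foxp3 cells with Tnfrsf9 then had a ratio of 0.950 (interval 0.755 to 1.19), so no difference within this gate was detectable in thinned lymph node cells. In spleen, ICRE cells with Tnfrsf9 held 4773 CPM against 4938 CPM in Foxp3 cells with it (80 and 299 cells), and those without held 2777 against 3917 CPM. That spleen value rests on 1 cell, which gave 36.4% of the set's UMIs in its group of 80. Without it the group held 3290 CPM. Thinned to 1200 UMIs, spleen ICRE cells held 3268 CPM with Tnfrsf9 and 2771 CPM without (ratio 1.18, interval 0.986 to 1.40). Thinned spleen Foxp3 cells were not higher with Tnfrsf9, at 3310 against 3514 CPM (ratio 0.942, interval 0.828 to 1.07). ICRE over Foxp3 cells in thinned spleen had a ratio of 0.987 with Tnfrsf9 (interval 0.804 to 1.21). Without Tnfrsf9 that ratio was 0.789 (interval 0.731 to 0.850). Matched on depth, lymph node ICRE cells with Tnfrsf9 stood at 0.769 times the Foxp3 cells with it, and those without at 0.964 times, but the match with Tnfrsf9 was incomplete, at a mean of 1885 UMIs in ICRE cells against 2251 in weighted Foxp3 cells. In spleen the matched ratios were 1.27 with Tnfrsf9, where the same 1 cell is counted, and 0.809 without. The tail of cells with 10 or more UMIs of the set at 1200 UMIs held 1 of 255 lymph node and 3 of 342 spleen ICRE cells, against 8 of 505 and 31 of 591 Foxp3 cells. The variance of ICRE cells was 1.12 and 1.17 times their mean, against 1.58 and 2.19 in Foxp3 cells.

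Against all cells without it, ICRE gave a like picture, since those cells include the Foxp3 cells. The set held 2743 CPM in the 379 lymph node cells with ICRE against 3701 CPM without, and 3233 against 4012 CPM in the 549 spleen cells with it. The median log2 ratio was −0.31 in both tissues, and 12 of 32 and 8 of 36 members were lower past the fold, where 5.20% and 2.88% of all genes were. Gnl3 had 32.9 against 52.9 CPM and 21.0 against 58.0 CPM, with a lymph node log2 ratio of 0.040 in thinned cells, and Ddx21 56.2 against 85.8 CPM and 64.0 against 94.2 CPM. Matched on depth, the ratio of the sum was 0.849 and 0.916.

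Ly6c1 separated the set little, and Foxp3 did so only without depth matching. Cells with Foxp3 (1007 in lymph node, 1239 in spleen) held 3557 CPM against 3682 CPM without it among lymph node cells and 4229 against 3859 CPM among spleen cells, with median log2 ratios of −0.13 and 0.09. They were deeper, at 2849 against 1846 UMIs and 2940 against 1793 UMIs. Matched on depth both medians were below 0, at −0.32 and −0.27, against 0.01 and 0.02 over all genes. The matched ratio of the sum was 0.828 in lymph node and 0.822 in spleen. Without matching, Odc1 was the member most above equality in both tissues, at 64.2 against 51.3 CPM and 57.3 against 41.0 CPM. At matched depth it was below equality in lymph node. Nop10 was, without matching, the lowest in spleen and among the 3 lowest in lymph node, at 288 against 369 CPM and 324 against 383 CPM. Cells with Ly6c1 (923 and 1373) held 3457 against 3688 CPM among lymph node cells and 3985 against 3954 CPM in spleen, with medians of −0.14 and 0.01. Odc1 was the lowest member there, at 34.5 against 59.2 CPM and 31.8 against 48.9 CPM. Odc1 was thus the member that moved most with Ly6c1.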

How the data were processed

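The deposited values are counts, UMIs per gene and cell barcode, made by the authors with Cell Ranger 3.0.1 on mm10, per the submitters' processing notes. Gene positions are from GENCODE M21 on GRCm38. The members, roles, wider list, gates and markers were chosen with earlier results of these data known.

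Barcodes with under 500 genes or over 10% mitochondrial UMIs (259 in lymph node, 297 in spleen) were removed. No doublet caller was run, and an alternative left out the deepest 6% of cells. A cell with at least 1 UMI of a gene was gated as having it and a cell with 0 as lacking it. UMIs were summed over the cells of a group and scaled to CPM, with exact Poisson intervals. Ratios have exact conditional binomial intervals and shares exact Clopper-Pearson ones. Where 1 side of a ratio had no count, the floor of 3 stood in. List medians use members averaging at least 20 CPM over the groups compared, with order-statistic intervals. A gene can thus enter through the higher group alone. With 1 library per tissue no test was run. For depth, cells without a gate gene were weighted to the UMIs of those with it, in 10 bins, or all cells were thinned to 1200 UMIs and gated anew, without the shallower cells (252 in lymph node, 525 in spleen). Members given in full were 8 set genes and, in each contrast, up to 6 at each end with the same sign in both libraries, ordered by the smaller absolute ratio. Nop58, Ddx18 and other members outside that rule were named after their values were seen. The intervals were tested on simulated Poisson counts. Those counts lack the extra spread between cells seen here, so that test does not cover it. Python 3.11.15, numpy 2.4.6, scipy 1.17.1 and matplotlib 3.10.9 were used.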

Additional observations from a re-analysis of the deposited data

Results flagged for a closer look

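The Foxp3 gate had medians of opposite sign in the 2 tissues. The median log2 ratio over members was −0.13 in lymph node cells with Foxp3 over cells without it (interval −0.22 to −0.09) and 0.086 in spleen (interval 0.05 to 0.21). With 1 library per tissue the difference between the tissues was not tested. Matched on depth, the medians were −0.32 and −0.27.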

How the results depend on the processing

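The library is the unit, and leaving out a replicate was not possible with 1 library per tissue. No paired analysis was possible because the groups hold 1 library each and the labels give no replicate number. Of 150 list medians under the alternatives, 108 moved little and 7 changed sign, and of 80 counts past the fold 30 moved by over 1.5 times. The counts below are listed without the share of all genes past the fold. They show how the counts moved and are not set against a background here.

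Thinned to 1200 UMIs, the medians were 0.18 in lymph node and 0.41 in spleen for Tnfrsf9, 0.52 and 0.43 for Myc, 0.035 for Foxp3 in spleen, 0.13 for Klrg1 in spleen, −0.12 for Ly6c1 in spleen and 0.0061 for ICRE against Foxp3 in lymph node, the last 3 with a change of sign. Its counts were 5 and 9 members for Tnfrsf9, 15 and 13 for Myc, 6 and 4 for ICRE and 5 and 9 for ICRE against Foxp3. With cells weighted equally, medians were 0.26 and 0.49 for Tnfrsf9, 0.47 and 0.59 for Myc, −0.013 and 0.22 for Foxp3, −0.14 for ICRE and −0.047 for Ly6c1 in lymph node, and counts were 5 and 12, 11 and 18, 3 and 4 for ICRE and 5 for ICRE against Foxp3 in lymph node. Without the deepest 6% of cells, medians were 0.22 and 0.39 for Tnfrsf9, 0.38 and 0.29 for Myc, and in lymph node −0.040 for Foxp3, −0.13 for ICRE and −0.028 for Ly6c1. Its counts were 3 and 8 for Tnfrsf9, 7 and 5 for Myc and, in lymph node, 5 for ICRE and 5 for ICRE against Foxp3.

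Matched on depth, medians were 0.52 for Tnfrsf9 in spleen, 0.45 and 0.56 for Myc, −0.51 and −0.63 for Klrg1, −0.32 and −0.27 for Foxp3, where spleen changed sign, −0.17 and −0.063 for ICRE, 0.00 (0.0011, a change of sign) and −0.19 for ICRE against Foxp3 and 0.075 for Ly6c1 in spleen. Its counts were 12 for Tnfrsf9 in spleen, 7 and 13 for Myc, 3 and 3 for ICRE and 1 and 7 for ICRE against Foxp3. With cells holding other markers left out, medians were 0.46 for Tnfrsf9 in lymph node, −0.28 for Klrg1 in spleen, −0.031 and −0.031 for Ly6c1, where spleen changed sign, and −0.25 between tissues, with counts of 13 for Tnfrsf9 in lymph node and 3 for ICRE in spleen. Centred on the median of all genes, Ly6c1 in spleen was at 0.10, and without the cell richest in the set, a choice made after seeing the data like leaving out shared barcodes, at −0.040, a change of sign. No other median or count moved when the shared barcodes or that cell were left out.

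Several single members changed sign. In thinned spleen cells these included Dkc1 with Tnfrsf9 (−0.044), Apex1 with Myc (−0.046) and Srm with Klrg1 (0.41). In thinned lymph node cells they included Gnl3 with ICRE (0.040). Thinned Polr1b did so with Klrg1 in spleen (1.98), Ly6c1 in lymph node (0.00244) and ICRE in lymph node (1.15) and spleen (0.21). Mrto4 did so with Myc in lymph node without the deepest cells (−0.048). Apex1 did so for ICRE against Foxp3 in spleen at matched depth (0.022). The list is not complete, since Odc1 with Foxp3 in lymph node was also lower at matched depth. Polr1b had few UMIs, and its thinned values rest on the floor or near it. Depth is a limit, since it differed between the sides of each gate. Cells with a UMI of Tnfrsf9, Myc, Klrg1 or Foxp3 were deeper than cells without, and cells with ICRE or Ly6c1 were shallower. Cells without a UMI include cells that express the gene, and no alternative separates depth from the size of a cell. The cause of these moves was not tested.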
